A study of Mus musculus with 42 samples.

Results

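Of the 53465 genes in the count table, 7 were taken by name as genes of microfold cells and of the medullary thymic cells that resemble them: Gp2, Spib, Sox8, Tnfaip2, Pglyrp1, Anxa5 and Marcksl1. They were chosen by their names alone, each from the Ensembl identifier that maps to the mouse symbol, and all 7 were measured and passed the filter on low counts. The libraries were made from thymic epithelial cells (TEC) of the mouse, on whose contacts and secreted factors developing T cells depend, in a study of a TEC-specific deletion of Ski, which encodes a transcriptional corepressor of SMAD signalling. Cortical TEC (cTEC) were sorted as Epcam+ CD45- UEA- Ly51+, and medullary TEC (mTEC) as Epcam+ CD45- UEA+ Ly51-low cells that were either MHCII-low or MHCII-high. Each library was made from 200 sorted cells with a full-length, PCR-amplified chemistry that marks neither strand nor molecule. Each of the 3 cell types was represented by 5 Control, 7 KO and 2 Ski flox Control libraries, and all 3 groups were amplified alike.

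The labels do not name the driver of the deletion, the alleles that Control animals carry, the age of the mice or the animal behind each library. The p-values below therefore take in only how far libraries of a group lay apart, and that spread may be technical. A pair of Control libraries with 82 and 41828 counts, 1 MHCII-low and 1 MHCII-high, fell under a minimum of 100000 counts and were left out, so that each medullary Control group held 4 libraries. The 40 libraries used held 3217251 to 7068077 counts. They fall into a lower-numbered set of 19 libraries and a higher-numbered set of 21, a division known from an earlier look at these data that no label names as a batch, and both Ski flox Control libraries of every cell type are higher-numbered. Summed levels of 7 mTEC markers ran from 122 to 294 CPM (counts relative to the library total) in the cTEC Control libraries, from 439 to 1124 CPM in MHCII-low Control libraries and from 1242 to 2422 CPM in MHCII-high Control libraries. In KO they ran from 94.0 to 301, 174 to 1963 and 1214 to 2689 CPM in the same order, so that cTEC and MHCII-low libraries overlapped. Summed levels of 8 cTEC markers were 1888 to 18063, 494 to 1049 and 292 to 1672 CPM in Control. In KO they were 484 to 12934, 416 to 2395 and 354 to 1061 CPM, again with overlap. Ski itself was not called lower in KO in any cell type by edgeR's quasi-likelihood test. Its mean level was 16.8 ± 8.97 CPM (SD, n = 5) in Control and 16.4 ± 16.4 CPM (SD, n = 7) in KO cTEC, 24.7 ± 15.2 CPM (n = 4) and 6.52 ± 5.95 CPM (n = 7) in MHCII-low mTEC, and 13.4 ± 6.57 CPM (n = 4) and 6.16 ± 6.48 CPM (n = 7) in MHCII-high mTEC. Counts over the whole gene need not show a deletion of some of its exons, so that this does not check the labels.

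Microfold cells, or M cells, are epithelial cells over the lymphoid follicles of the gut that carry particles and microbes from the lumen to immune cells. Their differentiation depends on RANK signalling through NF-kappaB, and on the transcription factors Spi-B and SOX8. The medulla of the thymus holds epithelial cells that take on features of peripheral cell types, M cells among them. Among the 7 genes, Spib and Sox8 encode those transcription factors. Gp2 encodes a GPI-anchored glycoprotein that serves M cells as a receptor for bacteria, and is the classical marker of mature M cells. Tnfaip2 encodes a cytosolic protein that promotes membrane protrusions, Pglyrp1 a secreted peptidoglycan-binding antimicrobial protein, Anxa5 a calcium-dependent phospholipid-binding protein, and Marcksl1 an actin-associated substrate of protein kinase C.

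In GENCODE release M21 on GRCm38, Gp2 lies on chromosome 7 from 119442537 to 119459285 on the minus strand, Spib on chromosome 7 from 44525993 to 44532071 on the minus strand, and Pglyrp1 on chromosome 7 from 18871331 to 18890459 on the plus strand. Sox8 lies on chromosome 17 from 25565892 to 25570686 on the minus strand, Tnfaip2 on chromosome 12 from 111442469 to 111455018 on the plus strand, Anxa5 on chromosome 3 from 36448923 to 36475894 on the minus strand, and Marcksl1 on chromosome 4 from 129513581 to 129515985 on the plus strand. Of the exonic bases of Sox8, 329 (10.6%) are shared with the antisense gene 2810468N07Rik, and 314 exonic bases of Tnfaip2 (6.30%) are shared with the antisense gene Gm40578. Reads from those stretches cannot be assigned to a strand in these libraries.

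The 250 bases before the annotated start are shown for the 4 genes that passed the test between medullary and cortical cells and had the largest fold changes. Sequences are from RefSeq on GRCm38.p6, which held all 7 genes, and read 5′ to 3′ on the strand of the gene. They lie at chr7:119459273-119459522 (minus) for Gp2, chr7:44532072-44532321 (minus) for Spib, chr17:25570687-25570936 (minus) for Sox8 and chr7:18884440-18884689 (plus) for Pglyrp1. The starts are those of RefSeq. For Pglyrp1 that start lies downstream of the GENCODE start, so that the window falls inside the GENCODE span given above. The Gp2 window also reaches a few bases into the GENCODE span of Gp2. Capitals mark matches, on either strand, to GAGGAA (an ETS core of the kind that Spi-B binds), GGG and CC with 5 bases of any kind between them (an NF-kappaB pattern) or ACAANG (a SOX pattern).
Gp2: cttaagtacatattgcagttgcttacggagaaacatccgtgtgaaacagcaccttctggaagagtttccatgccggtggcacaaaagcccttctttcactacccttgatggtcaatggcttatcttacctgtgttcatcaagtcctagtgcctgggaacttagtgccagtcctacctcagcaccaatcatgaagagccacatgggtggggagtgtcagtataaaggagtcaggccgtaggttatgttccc
Spib: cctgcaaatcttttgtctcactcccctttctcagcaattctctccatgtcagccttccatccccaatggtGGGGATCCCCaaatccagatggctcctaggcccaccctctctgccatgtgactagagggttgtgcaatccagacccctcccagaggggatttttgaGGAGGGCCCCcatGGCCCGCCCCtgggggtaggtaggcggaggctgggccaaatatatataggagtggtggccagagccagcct
Sox8: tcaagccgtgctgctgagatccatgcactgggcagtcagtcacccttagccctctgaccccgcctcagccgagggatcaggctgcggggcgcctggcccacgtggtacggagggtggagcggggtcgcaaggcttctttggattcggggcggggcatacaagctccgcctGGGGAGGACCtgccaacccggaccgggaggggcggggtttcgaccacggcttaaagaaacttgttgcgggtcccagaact
Pglyrp1: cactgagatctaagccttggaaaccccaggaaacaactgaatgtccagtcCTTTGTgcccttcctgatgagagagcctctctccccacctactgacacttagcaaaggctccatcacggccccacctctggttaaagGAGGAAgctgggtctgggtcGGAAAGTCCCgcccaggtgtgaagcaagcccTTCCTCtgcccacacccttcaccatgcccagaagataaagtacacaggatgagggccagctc
The Gp2 window held none of these letters. The Spib window held 3 NF-kappaB matches and the Sox8 window 1, while the Pglyrp1 window held 2 ETS matches, 1 NF-kappaB match and 1 SOX match. Over all 7 genes, 6 windows held an NF-kappaB match, 2 an ETS match and 1 a SOX match. Of the 32851 windows of the same length in the table, 45.8% held an NF-kappaB match, 23.3% an ETS match and 36.3% a SOX match. Some NF-kappaB matches of Tnfaip2 and Marcksl1 overlap each other. These matches describe the letters of the windows and are not measured binding sites.

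In Control animals Gp2 and Pglyrp1 were higher in both medullary populations than in cTEC, and in KO animals Gp2, Pglyrp1, Spib and Sox8 were. In Control libraries Gp2 was high in the medulla and at or under 5.46 CPM in cTEC, whereas Anxa5 and Marcksl1 were abundant in all 3 cell types. Tnfaip2 and Marcksl1 passed the test in none of these 4 comparisons, so that the data do not show all 7 genes as medullary. In bulk libraries, fewer cells that express a gene and less RNA per cell cannot be told apart. The levels below are CPM after TMM normalisation.

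**Figure D1:**
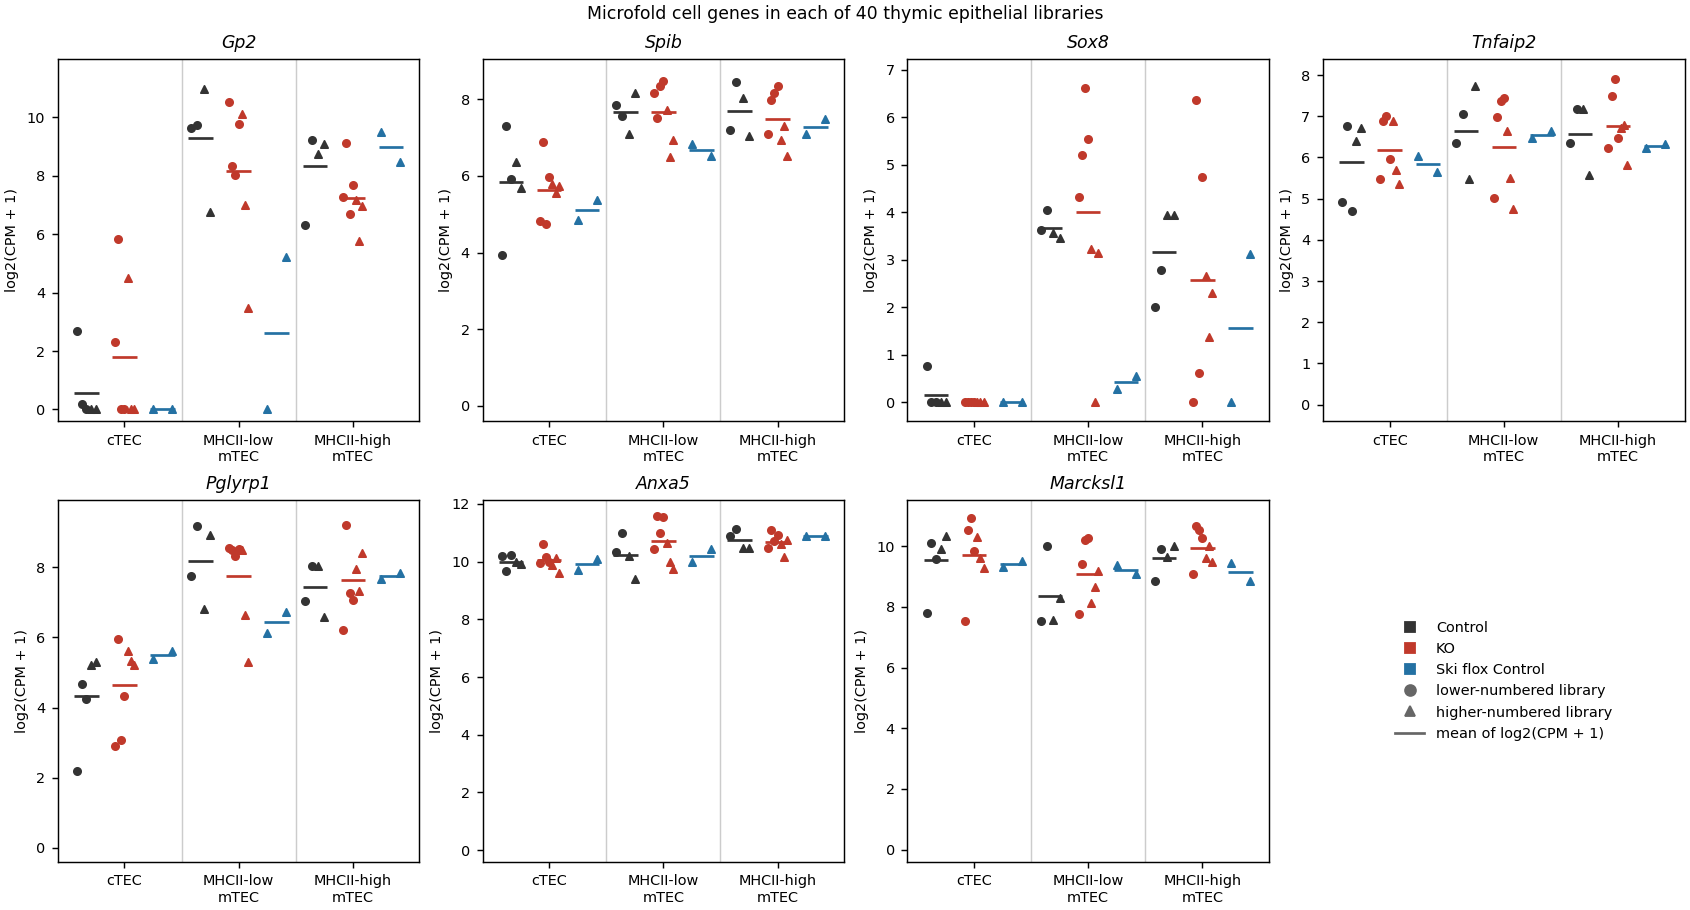
Level of each of the 7 genes in each library, as log2(CPM + 1) on the vertical axis, for the 3 cell types on the horizontal axis, with Control, KO and Ski flox Control in different colours. Each point is a library (circles lower-numbered, triangles higher-numbered) and each bar the group mean of the log values. Gp2 lay between 0 and 56.1 CPM in all 14 cTEC libraries and between 54.0 and 728 CPM in all 13 MHCII-high libraries, while Anxa5 and Marcksl1 stood high in all 3 cell types.

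Gp2, the M cell receptor, was counted in 2 of 5 cTEC Control libraries, at 5.46 and 0.146 CPM, and was at 0 in the other 3. The 4 MHCII-low Control libraries held 802, 846, 2021 and 107 CPM, and the 4 MHCII-high Control libraries held 78.3, 592, 433 and 547 CPM. Every medullary Control library thus stood above every cTEC Control library. The ratio of the means was 843 in MHCII-low mTEC, where the edgeR fit gave 9.69 ± 1.95 on the log2 scale (SE, adjusted p = 0.0123), and 368 in MHCII-high mTEC, with 8.50 ± 1.86 (adjusted p = 0.0184). The call in MHCII-low mTEC was lost without cTEC Control replicate 4 (adjusted p = 0.0529), and that in MHCII-high mTEC without any 1 of cTEC Control replicates 2, 3, 4 and 5 (adjusted p = 0.0574 to 0.0644). Of the 32 counts of Gp2 in cTEC Control, 31 came from replicate 1. Without that library the fitted log2 values were 13.84 and 12.62, against a cTEC group with a single count, and without any 1 other library they lay between 9.0 and 10.07 and between 8.11 and 8.84. Neither call was made by limma voom (adjusted p = 0.119 and 0.117), which works on log values.

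Pglyrp1, the peptidoglycan-binding protein, held 3.52, 24.3, 18.1, 36.1 and 38.4 CPM in the cTEC Control libraries. It held 215, 581, 111 and 489 CPM in MHCII-low and 131, 262, 261 and 95.6 CPM in MHCII-high Control libraries, again with no overlap with cTEC. The log2 fold change over cTEC was 3.86 ± 0.70 (adjusted p = 0.00630) in MHCII-low and 2.96 ± 0.67 (adjusted p = 0.0224) in MHCII-high mTEC. The second call was lost without any 1 of cTEC Control replicates 2, 3 and 4 or MHCII-high Control replicates 3 and 4 (adjusted p = 0.0508 to 0.0627), and limma voom made neither call (adjusted p = 0.0959 and 0.169). Pglyrp1 is also a neutrophil granule gene, and a list of 8 neutrophil markers likewise had higher summed levels in medullary than in cTEC Control libraries. Their summed level was 0 to 10.7 CPM in cTEC Control, 37.3 to 810 CPM in MHCII-low Control and 122 to 1038 CPM in MHCII-high Control libraries. Of that list only S100a8 was called higher in both populations in Control, with log2 fold changes of 8.01 ± 1.58 (adjusted p = 0.0105) and 9.33 ± 1.65 (adjusted p = 0.00380). Of the 7 genes of that list that were tested, 5 had positive values in MHCII-low and 7 in MHCII-high mTEC, with medians of 4.88 and 8.20. Elane, also on the list, was at 0 in all of these Control libraries. Retnlg and Mmp8 were at 0 in cTEC and MHCII-low Control, and Ngp in cTEC Control. The part of neutrophil transcripts in the Pglyrp1 level was not tested.

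Sox8, the SOX family transcription factor, was the lowest of the 7 genes. A single cTEC Control library held 4 counts of it, 0.704 CPM, and the other 4 were at 0. The MHCII-low Control libraries held 11.3, 15.6, 10.8 and 9.91 CPM and the MHCII-high Control libraries 3.01, 5.85, 14.4 and 14.4 CPM, so that the groups did not overlap. The adjusted p was 0.104 for a log2 fold change of 6.17 ± 1.87 in MHCII-low mTEC and 0.0961 for 5.84 ± 1.84 in MHCII-high mTEC, neither of which passed the threshold of 0.05. DESeq2 called Sox8 in both, with adjusted p of 0.00412 and 0.00722.

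Spib, the ETS family transcription factor, was expressed in cTEC as well. The cTEC Control libraries held 14.4, 157, 59.1, 81.6 and 49.9 CPM, against 231, 186, 134 and 283 CPM in MHCII-low and 147, 350, 261 and 130 CPM in MHCII-high Control libraries. The highest cTEC library lay above the lowest library of each medullary group. The log2 fold changes of 1.53 ± 0.49 (adjusted p = 0.115) and 1.62 ± 0.49 (adjusted p = 0.0793) did not pass by edgeR, but both passed by DESeq2 (adjusted p = 0.0293 and 0.0195). Leaving out cTEC Control replicate 2, the library at 157 CPM, brought the MHCII-high comparison past the edgeR threshold (adjusted p = 0.0462). Spib is also a gene of B cells and plasmacytoid dendritic cells. Summed levels of 8 B cell markers were 441 to 8040 CPM in cTEC, 173 to 6098 CPM in MHCII-low and 143 to 338 CPM in MHCII-high Control libraries, and those of 6 plasmacytoid markers were 116 to 950, 106 to 497 and 270 to 485 CPM. None of the 8 B cell or 6 plasmacytoid markers was called higher in either Control comparison, where only 0.703% and 1.07% of all genes were. Tlr9 was at 0 in MHCII-low Control. The part of these cells in the Spib level was not tested.

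None of the other 3 genes passed the test between medulla and cortex in Control animals. Tnfaip2 held 29.0, 107, 25.2, 83.7 and 104 CPM in cTEC, 80.8, 131, 43.5 and 212 CPM in MHCII-low and 81.0, 144, 144 and 46.7 CPM in MHCII-high Control libraries, with overlapping ranges. Its log2 fold changes over cTEC were 0.74 ± 0.55 (adjusted p = 0.557) and 0.58 ± 0.55 (adjusted p = 0.664). Anxa5 averaged 1031 ± 162 CPM (SD, n = 5) in cTEC, 1294 ± 569 CPM (n = 4) in MHCII-low and 1746 ± 396 CPM (n = 4) in MHCII-high mTEC. All 4 MHCII-high libraries stood above every cTEC library for Anxa5, but the log2 fold changes of 0.33 ± 0.29 (adjusted p = 0.662) and 0.76 ± 0.29 (adjusted p = 0.138) did not pass. Marcksl1 had its lowest Control mean in MHCII-low mTEC, at 428 ± 405 CPM (n = 4), where 3 libraries held 183 to 311 CPM and the remaining one 1029 CPM. In cTEC it averaged 867 ± 411 CPM (n = 5) and in MHCII-high mTEC 812 ± 252 CPM (n = 4), and its log2 fold changes over cTEC were -1.02 ± 0.55 (adjusted p = 0.333) and -0.09 ± 0.54 (adjusted p = 0.996).

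Of the 7 genes, 2 were thus called higher in MHCII-low mTEC than in cTEC in Control, where 0.703% of the 23040 genes tested were called higher. The same number passed in MHCII-high mTEC, where 1.07% were called higher. Over all genes and both directions, 178 and 256 were called with every library, and 42 to 215 and 69 to 224 with 1 left out, the fewest without cTEC Control replicate 4. The median log2 fold change of the 7 genes was 1.53 in MHCII-low and 1.62 in MHCII-high mTEC, beside 0.14 and 0.25 over all genes tested. The group ranges did not overlap for 3 genes in MHCII-low mTEC (Gp2, Sox8 and Pglyrp1), beside 5.08% of all genes in that direction, and for 4 in MHCII-high mTEC (the same 3 and Anxa5), beside 6.8%.

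**Figure D2:**
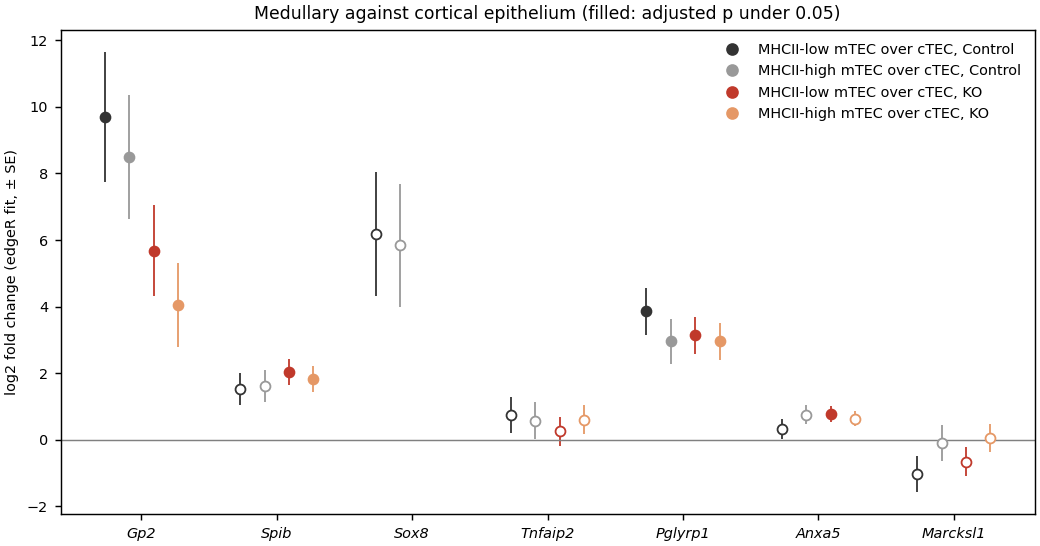
Log2 fold change of each of the 7 genes over cTEC from the edgeR fit, with its SE, for MHCII-low and MHCII-high mTEC in Control and KO. Filled points passed an adjusted p of 0.05 and open points did not. Sox8 in KO is left out because no cTEC KO library held a count. Gp2 in Control had the largest values drawn, 9.69 and 8.50, and the Tnfaip2 and Marcksl1 points are all open.

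In KO animals the same cell types were compared with 7 libraries each. Gp2 was at 0 in 4 of 7 cTEC KO libraries, and the other 3 held 3.92, 21.9 and 56.1 CPM. The MHCII-low KO libraries ranged from 10.1 to 1461 CPM with a median of 320 CPM, and the MHCII-high KO libraries from 54.0 to 557 CPM with a median of 144 CPM. The ranges overlapped with cTEC in both populations, through 1 MHCII-low library at 10.1 CPM and 1 MHCII-high library at 54.0 CPM. Gp2 was called higher in MHCII-low mTEC, with a log2 fold change of 5.68 ± 1.36 (adjusted p = 0.0139), and in MHCII-high mTEC, with 4.05 ± 1.26 (adjusted p = 0.0324). The latter call was lost without any 1 of cTEC KO replicates 1, 3, 4, 6 and 7 or without MHCII-high KO replicate 2 (adjusted p = 0.0517 to 0.0550). Both calls were lost with limma voom (adjusted p = 0.337 and 0.300) and in a fit of only the groups compared (adjusted p = 0.149 and 0.127).

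Sox8 was at 0 in all 7 cTEC KO libraries. It held 19.1, 35.8, 97.0, 45.6, 8.39 and 7.85 CPM in 6 MHCII-low KO libraries and was at 0 in the remaining one, and it held 81.1, 25.9, 5.29, 3.89, 1.57 and 0.535 CPM in 6 MHCII-high KO libraries, with 1 at 0. Set against 3 counts over the summed cTEC KO libraries, its mean was at least 351-fold higher in MHCII-low mTEC (adjusted p = 0.00223) and at least 194-fold higher in MHCII-high mTEC (adjusted p = 0.00230). Without MHCII-high KO replicate 2, the library at 81.1 CPM, the MHCII-high mean fell to 6.20 CPM and the bound to at least 71.3-fold, and without MHCII-low KO replicate 3, at 97.0 CPM, the MHCII-low bound was at least 224-fold. Neither group was free of a library at 0, so that the ranges touched those of cTEC.

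Spib ranged from 26.0 to 116 CPM in cTEC KO, from 89.6 to 354 CPM in MHCII-low KO and from 90.3 to 323 CPM in MHCII-high KO libraries. It was called higher in both medullary populations, with log2 fold changes of 2.03 ± 0.40 (adjusted p = 0.00350) and 1.83 ± 0.40 (adjusted p = 0.00469), although the cTEC library at 116 CPM reached into both ranges. Summed B cell markers were 116 to 15137 CPM in cTEC, 137 to 17268 CPM in MHCII-low and 37.2 to 485 CPM in MHCII-high KO libraries, and none of the 8 was called higher in either population (5.19% and 12.9% of all genes were). Those of 6 plasmacytoid markers were 340 to 902, 23.1 to 607 and 315 to 561 CPM in the same order. The part of these cells in the Spib result was not tested. Pglyrp1 ranged from 6.53 to 61.1 CPM in cTEC, 38.7 to 373 CPM in MHCII-low and 73.5 to 587 CPM in MHCII-high KO libraries. Its log2 fold changes over cTEC were 3.14 ± 0.56 (adjusted p = 0.00121) and 2.96 ± 0.55 (adjusted p = 0.00130), and limma voom made neither call (adjusted p = 0.111 and 0.0729). The neutrophil list summed to 0 to 82.2 CPM in cTEC, 16.6 to 3927 CPM in MHCII-low and 715 to 2243 CPM in MHCII-high KO libraries, with Elane at 0 in all 3 groups, Retnlg and Mmp8 at 0 in cTEC, and with S100a8 and S100a9 called higher in both comparisons. The part of these markers in the Pglyrp1 result was not tested.

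Anxa5 averaged 1079 ± 248 CPM (n = 7) in cTEC KO, 1849 ± 881 CPM (n = 7) in MHCII-low KO and 1673 ± 344 CPM (n = 7) in MHCII-high KO libraries. It was called higher in MHCII-low mTEC, by 0.78 ± 0.23 on the log2 scale (adjusted p = 0.0429), and fell just short in MHCII-high mTEC, with 0.63 ± 0.23 (adjusted p = 0.0569). The former call was lost without any 1 of 8 libraries, MHCII-low KO replicates 2, 3 and 4 and cTEC KO replicates 3, 4, 5, 6 and 7 (adjusted p = 0.0593 to 0.0928), and the latter was gained without cTEC KO replicate 2 (adjusted p = 0.0409) or MHCII-high KO replicate 6 (adjusted p = 0.0323). The call in MHCII-low mTEC was also lost with limma voom (adjusted p = 0.378), with all 42 libraries (adjusted p = 0.291) and in a fit of only the groups compared (adjusted p = 0.311), and DESeq2 called both (adjusted p = 0.0160 and 0.0359). Tnfaip2 had log2 fold changes of 0.25 ± 0.44 (adjusted p = 0.856) and 0.60 ± 0.44 (adjusted p = 0.383), and Marcksl1 of -0.65 ± 0.43 (adjusted p = 0.383) and 0.05 ± 0.43 (adjusted p = 0.987).

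In KO, 5 of the 7 genes were called higher in MHCII-low mTEC than in cTEC, beside 5.19% of all genes, and 4 of 7 in MHCII-high mTEC, beside 12.9%. The medians were 2.03 and 1.83 on the log2 scale, against 0.25 and 0.28 over all genes tested. No gene of the 7 had ranges without overlap in MHCII-low mTEC (0.569% of all genes did, in that direction), and Pglyrp1 alone did in MHCII-high mTEC (2.46%). Control and KO were compared with different numbers of libraries, and a call in one and not the other does not show a difference between them.

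Within the library sets the directions of Gp2, Spib, Sox8 and Pglyrp1 over cTEC were positive in all 4 comparisons in both sets, but with 2 to 4 libraries a group only 1 of these values passed. Few genes of any kind passed in the lower set: 1 and 4 of 20066 in Control and 38 and 206 in KO, in MHCII-low and MHCII-high mTEC. The higher set called 710 and 143 of 20216 genes in Control and 355 and 557 in KO. Among lower-numbered libraries Gp2 had log2 fold changes of 8.73 ± 2.30 (adjusted p = 0.477) and 7.40 ± 2.19 (adjusted p = 0.379) in Control and 5.67 ± 1.71 (adjusted p = 0.181) and 4.11 ± 1.59 (adjusted p = 0.182) in KO, in MHCII-low and MHCII-high mTEC in turn. Among higher-numbered libraries both cTEC Control libraries were at 0 for Gp2, and the KO values were 5.83 ± 1.98 (adjusted p = 0.169) and 3.91 ± 1.83 (adjusted p = 0.237). Pglyrp1 ran from 3.33 to 4.71 on the log2 scale over the 4 comparisons in the lower set and from 1.94 to 2.96 in the higher set, where it passed in MHCII-high KO mTEC (adjusted p = 0.0454). Spib ran from 1.47 to 2.35 in the lower set and from 1.23 to 1.62 in the higher set. Marcksl1 was lower in MHCII-low mTEC than in cTEC among the higher-numbered Control libraries, with a log2 fold change of -2.23 ± 0.39 (adjusted p = 0.00477, where 422 of 20216 genes were called lower), and had -0.18 ± 0.86 (adjusted p = 1) among the lower-numbered ones. In the higher-numbered set its 2 MHCII-low libraries at 188 and 311 CPM stood below both cTEC libraries, at 957 and 1302 CPM.

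The 2 Ski flox Control libraries of each cell type gave a further view, with no test. Gp2 was at 0 in both cTEC libraries, at 0 and 36.4 CPM in MHCII-low and at 728 and 352 CPM in MHCII-high libraries. The mean in MHCII-high mTEC was at least 1953-fold higher than 3 counts over both cTEC libraries. Pglyrp1 held 40.9 and 47.6 CPM in cTEC, 69.2 and 105 CPM in MHCII-low and 203 and 226 CPM in MHCII-high libraries. Tnfaip2 held 64.6 and 49.3 CPM in cTEC, 87.3 and 98.3 CPM in MHCII-low and 73.5 and 78.9 CPM in MHCII-high libraries. Both MHCII-high libraries stood above both cTEC libraries for 5 of the 7 genes (Gp2, Spib, Tnfaip2, Pglyrp1 and Anxa5), beside 29.5% of all genes. In MHCII-low mTEC this held for 4 of the 7 (Spib, Tnfaip2, Pglyrp1, and Sox8 on 1 and 2 counts), beside 17.8% of all genes.

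The order of the 7 genes was set side by side as mean CPM per kilobase of exon, since longer transcripts yield more reads. In cTEC Control the order was Anxa5 (580), Marcksl1 (540), Spib (25.2), Tnfaip2 (14.0), Pglyrp1 (13.1), Gp2 (0.561) and Sox8 (0.0452). In MHCII-low Control Gp2 stood next to Anxa5, with 473 against 728 CPM per kilobase, ahead of Marcksl1 (266), Pglyrp1 (190), Spib (72.8), Tnfaip2 (23.4) and Sox8 (3.81). In MHCII-high Control the order was Anxa5 (983), Marcksl1 (506), Gp2 (206), Pglyrp1 (102), Spib (77.4), Tnfaip2 (20.9) and Sox8 (3.02). In Control, Gp2 went from the sixth place in cTEC to the second in MHCII-low mTEC, although its MHCII-low libraries spread from 107 to 2021 CPM before division by length. It took the third place in MHCII-low KO (298 CPM per kilobase) and the sixth in MHCII-low Ski flox Control (9.10 CPM per kilobase).

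Between the medullary populations none of the 7 genes passed. In Control, MHCII-high against MHCII-low mTEC gave no gene by edgeR (0% of those tested, with 1720 at an unadjusted p under 0.05, 201 called by DESeq2 and 79 by limma voom), and in KO 4 genes by edgeR (0.0174%). Gp2 was lower on average in MHCII-high mTEC, with means of 412 against 944 CPM in Control and 192 against 595 CPM in KO, but the ranges overlapped and the log2 fold changes were -1.19 ± 1.49 (adjusted p = 1) and -1.64 ± 1.14 (adjusted p = 0.531). The Ski flox Control libraries ran the other way for Gp2, with 728 and 352 CPM in MHCII-high against 0 and 36.4 CPM in MHCII-low mTEC. Marcksl1 had values of 0.92 ± 0.57 (adjusted p = 0.739) and 0.70 ± 0.43 (adjusted p = 0.445). Marcksl1 ranged from 465 to 1023 CPM in MHCII-high Control against 183 to 1029 CPM in MHCII-low Control, so that these ranges overlapped too.

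The deletion of Ski was compared within each cell type. None of the 7 genes passed between KO and Control in any of the 3 cell types, and neither did any other gene by edgeR (0% in each, with 2443, 1639 and 1586 genes at an unadjusted p under 0.05 in cTEC, MHCII-low and MHCII-high mTEC, 520, 229 and 146 called by DESeq2, and 10, 11 and 14 by limma voom). A value that did not pass does not show that the levels were alike. The median log2 fold change of the 7 genes was 0.19, 0.10 and 0.22 in the 3 cell types.

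**Figure D3:**
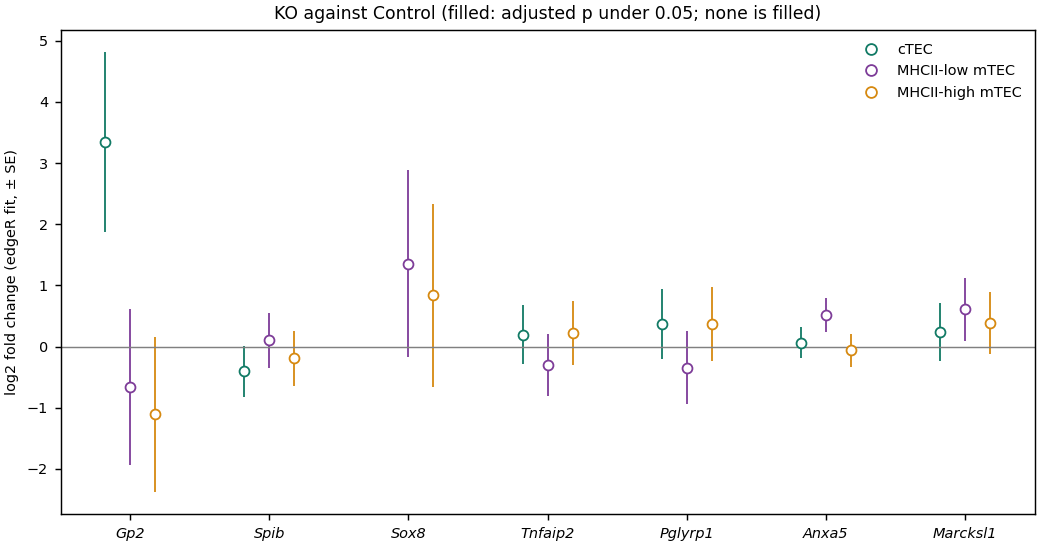
Log2 fold change of KO over Control from the edgeR fit, with its SE, for each of the 7 genes in the cortical and both medullary cell types. No point passed an adjusted p of 0.05. Sox8 in cTEC is left out because no KO library held a count. Gp2 had the widest spread between cell types, from -1.11 in MHCII-high mTEC to 3.34 in cTEC.

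Gp2 had a log2 fold change of 3.34 ± 1.47 in cTEC (adjusted p = 0.386), where the mean was 11.7 CPM in KO and 1.12 CPM in Control. The KO mean rests on 2 of 7 libraries, at 56.1 and 21.9 CPM. The log2 value was 1.88 without the former, cTEC KO replicate 2, and 7.39 without cTEC Control replicate 1, and it lay between 2.88 and 3.57 without any 1 other library. The library at 56.1 CPM also had the highest summed level of 15 other M cell genes among cTEC libraries, 8294 CPM. It held 264 CPM of summed mTEC markers, beside 122 to 294 CPM in the cTEC Control libraries. The M cell sum takes in genes that were high in every group, such as Fabp5. It ran from 2687 to 4032 CPM in cTEC Control and from 2589 to 12409 CPM in MHCII-low Control libraries, and so did not set these groups apart. The cell makeup of that cTEC KO library was not tested. In mTEC the values were -0.67 ± 1.28 in MHCII-low and -1.11 ± 1.27 in MHCII-high cells (adjusted p = 1 for both). In MHCII-high mTEC the higher-numbered libraries held 433 and 547 CPM in Control and 54.0, 125 and 144 CPM in KO, and the lower-numbered libraries 78.3 and 592 CPM in Control and 101 to 557 CPM in KO. The KO effect on Gp2 differed between MHCII-low mTEC and cTEC by -4.01 ± 1.89 on the log2 scale (adjusted p = 0.639) and between MHCII-high mTEC and cTEC by -4.45 ± 1.91 (adjusted p = 0.556). Neither difference passed, and no gene did in either test by edgeR (0%, with 1701 and 1673 at an unadjusted p under 0.05, 373 and 364 called by DESeq2, and 4 and 7 by limma voom).

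Sox8 averaged 30.5 CPM in MHCII-low KO against 11.9 CPM in MHCII-low Control libraries, with a log2 fold change of 1.36 ± 1.53 (adjusted p = 1). The 4 Control libraries kept within 9.91 to 15.6 CPM, while the 7 KO libraries spread from 0 to 97.0 CPM, with 4 above and 3 below all Controls. The 4 above were the lower-numbered KO libraries, at 19.1 to 97.0 CPM, and the 3 below the higher-numbered ones, at 0 to 8.39 CPM. Control libraries held 11.3 to 15.6 CPM in the lower-numbered and 9.91 to 10.8 CPM in the higher-numbered set. In MHCII-high mTEC the value was 0.84 ± 1.49 (adjusted p = 1), and 3 KO libraries at 0 to 1.57 CPM lay below and 2, at 25.9 and 81.1 CPM, above every Control. The lower-numbered libraries gave 1.85 ± 2.24 in MHCII-low and 2.55 ± 2.34 in MHCII-high mTEC, and the higher-numbered libraries -0.93 ± 1.87 and -1.96 ± 1.88 (adjusted p = 1 in all 4).

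Spib had log2 fold changes of -0.41 ± 0.42 in cTEC, 0.10 ± 0.45 in MHCII-low and -0.19 ± 0.45 in MHCII-high mTEC (adjusted p = 1 in each). Pglyrp1 had 0.37 ± 0.57, -0.35 ± 0.60 and 0.37 ± 0.61 (adjusted p = 1 in each). For both genes the KO and Control ranges overlapped in every cell type. Tnfaip2 averaged 69.8 CPM in Control and 79.7 CPM in KO cTEC, 116.7 and 94.8 CPM in MHCII-low, and 104 and 121 CPM in MHCII-high mTEC. Marcksl1 averaged 1025 ± 581 CPM in cTEC KO, 652 ± 411 CPM in MHCII-low KO and 1060 ± 409 CPM in MHCII-high KO libraries (n = 7 each), each mean within 1 SD of its Control mean.

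The control genotypes were also set against each other, here for MHCII-low mTEC. Both MHCII-low Ski flox Control libraries lay below all 4 Control libraries for Gp2 (0 and 36.4 CPM), Spib (112 and 91.4 CPM), Sox8 (0.218 and 0.460 CPM, from 1 and 2 counts) and Pglyrp1 (69.2 and 105 CPM). Such a lack of overlap held for 9.31% of all genes in that direction, and 4 of the 7 genes showed it. None passed: the log2 fold changes were -5.70 ± 2.47 for Gp2, -1.04 ± 0.66 for Spib, -5.03 ± 2.67 for Sox8 and -2.0 ± 0.92 for Pglyrp1, all with an adjusted p of 0.689. No gene at all passed by edgeR in this comparison (0%, with 1275 at an unadjusted p under 0.05, 773 called by DESeq2 and 105 by limma voom). An edgeR fit of the higher-numbered libraries alone, to which both Ski flox Control libraries belong, called 277 of 20216 genes (234 higher and 43 lower) and none of the 7. KO against Ski flox Control in the same cells gave 5.03 ± 2.34, 1.14 ± 0.63, 6.39 ± 2.83 and 1.65 ± 0.86, all with an adjusted p of 0.686 (0% of genes called, with 1410 at an unadjusted p under 0.05, 997 by DESeq2 and 88 by limma voom). These comparisons share the Ski flox Control libraries. Beside them, the Ski flox Control libraries held 361 and 330 CPM of summed mTEC markers, below the 439 to 1124 CPM of Control, and 2918 and 6197 CPM of 9 summed myeloid markers, against 637 to 4142 CPM in Control. None of the 7 mTEC or 9 myeloid markers was at 0 in both Ski flox Control libraries. The part of this makeup in the result was not tested. In MHCII-high mTEC the Ski flox Control libraries held 728 and 352 CPM of Gp2, within or above the Control range.

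A list of 15 further genes known from M cells was compared between medulla and cortex in the same fit. In Control, 2 of the 15 were called higher in MHCII-low mTEC than in cTEC (0.703% of all genes were) and 3 in MHCII-high mTEC (1.07%), with median log2 fold changes of 2.03 and 1.76. Ccl20, the chemokine ligand of CCR6, averaged 0.637 ± 1.43 CPM (n = 5) in cTEC, 458 ± 428 CPM (n = 4) in MHCII-low and 433 ± 201 CPM (n = 4) in MHCII-high mTEC, with log2 fold changes of 9.45 ± 1.86 (adjusted p = 0.0105) and 9.37 ± 1.85 (adjusted p = 0.00739). Scg5, which encodes a chaperone of a prohormone convertase, averaged 0.142 CPM, 101 ± 72.6 CPM and 61.4 ± 25.3 CPM in the same order, with 9.26 ± 1.75 (adjusted p = 0.00933) and 8.55 ± 1.71 (adjusted p = 0.00841). Gjb2, a gap junction gene, passed in MHCII-high mTEC, with 5.32 ± 1.32 (adjusted p = 0.0386).

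In KO, 7 of the 15 were called higher in MHCII-low mTEC (5.19% of all genes were) and 10 in MHCII-high mTEC (12.9%), with medians of 2.21 and 1.89. With 1 library left out at a time the counts were 5 to 9 and 5 to 11, while 683 to 1568 and 1960 to 3198 of all genes were called in either direction. The 5 in MHCII-high mTEC came without cTEC KO replicate 4 or 6, and without replicate 3 or 7 the count was 6. Esrrg, an orphan nuclear receptor gene, had no count in cTEC KO and was at least 145-fold higher in MHCII-low and at least 197-fold higher in MHCII-high mTEC (adjusted p = 0.0129 and 0.00678). Atoh8, a basic helix-loop-helix factor gene, had log2 fold changes of 5.73 ± 1.78 (adjusted p = 0.0494) and 5.99 ± 1.80 (adjusted p = 0.0281), and Ccl20 of 4.97 ± 1.25 (adjusted p = 0.0189) and 4.32 ± 1.21 (adjusted p = 0.0204). Umod, which encodes a relative of the Gp2 protein, was at least 144-fold higher in MHCII-high mTEC (adjusted p = 0.0142). None of the 15 passed between KO and Control in any cell type, with medians of 0.38, 0.64 and 0.34.

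**Figure D4:**
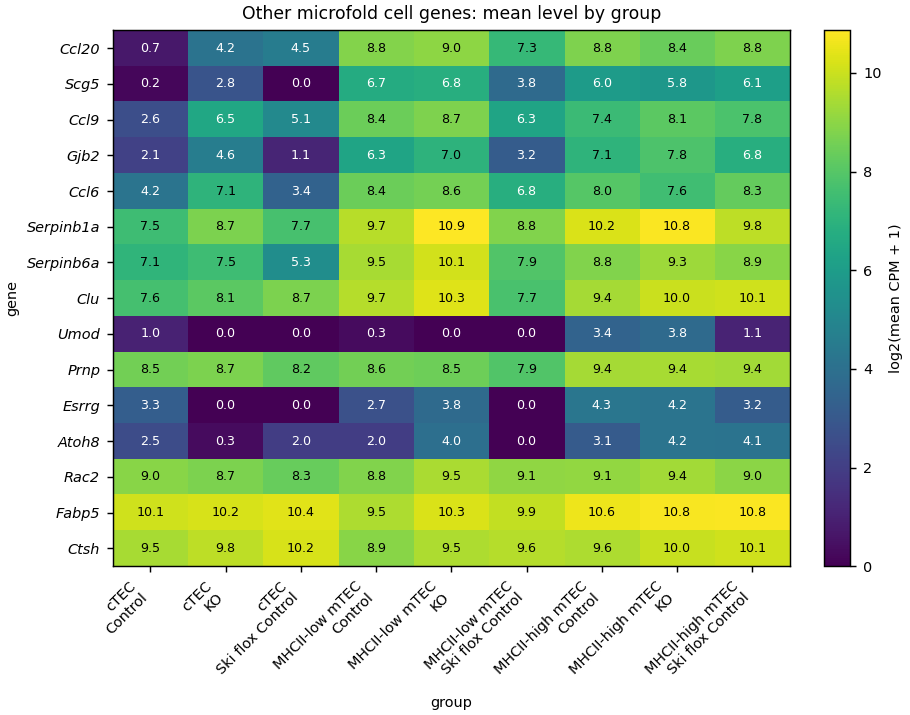
Mean level of each of the 15 further M cell genes (rows) in each of the 9 groups of cell type and genotype (columns), with the colour and the number in a cell giving log2(mean CPM + 1). Ccl20 and Scg5 are low in the cTEC columns and high in the medullary columns, with Control means of 0.637 CPM in cTEC and 458 CPM in MHCII-low mTEC for Ccl20, whereas Fabp5, Ctsh and Rac2 are high in all 9 columns.

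Genes of the RANK and NF-kappaB route to M cells were compared as well. Of 11 such genes, none passed between medulla and cortex in Control (0.773% of all genes did in MHCII-low mTEC and 1.11% in MHCII-high mTEC, in either direction), and their median log2 fold changes were -0.86 and -0.22. Tnfrsf11a, the gene of RANK itself, averaged 82.1 ± 74.5 CPM (n = 5) in cTEC, 83.4 ± 16.4 CPM (n = 4) in MHCII-low and 219 ± 78.8 CPM (n = 4) in MHCII-high Control libraries. In KO, Rela, a subunit of NF-kappaB, was lower in MHCII-low mTEC (5.68% of all genes were called in either direction; log2 fold change -1.0 ± 0.29, adjusted p = 0.0363) and in MHCII-high mTEC (14.7% called; -0.99 ± 0.29, adjusted p = 0.0228). Traf6, an adaptor of RANK, was lower in MHCII-low mTEC (-1.25 ± 0.39, adjusted p = 0.0494), and Tnfrsf11b, the gene of the decoy receptor of RANK ligand, was higher in MHCII-high mTEC (4.02 ± 1.34, adjusted p = 0.0409). With 1 library left out at a time, 0 to 1 of the 11 were higher and 0 to 1 lower in MHCII-low KO mTEC, and 0 to 1 were higher and 0 to 2 lower in MHCII-high KO mTEC. In Control, 0 to 1 were then higher in each population, and 0 to 1 lower in MHCII-low mTEC. Over all genes, these fits called 683 to 1568 in MHCII-low and 1960 to 3198 in MHCII-high mTEC in KO. The Control fits called 42 to 215 and 69 to 224 in the same order. None of the 11 passed between KO and Control.

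After the group means were taken off, the 7 genes varied together from library to library only in part. Over the 40 libraries, which share the amplification chemistry and differ in depth and cell makeup, Spearman's rho of log2(CPM + 1) was positive for 20 of the 21 pairs, with a median of 0.288. It was highest for Tnfaip2 and Marcksl1 (0.67), then for Spib and Tnfaip2 (0.53) and for Spib and Pglyrp1 (0.52). Gp2 gave 0.40 with Anxa5, 0.40 with Sox8, 0.26 with Pglyrp1, 0.14 with Spib, 0.06 with Tnfaip2 and -0.02 with Marcksl1. In the lower-numbered set 19 pairs were positive, with a median of 0.311, and in the higher-numbered set 11, with a median of 0.153, where Tnfaip2 and Marcksl1 gave 0.20 and Anxa5 and Marcksl1 -0.52. Over the 26 medullary libraries alone all 21 pairs were positive, with a median of 0.426. Pairs drawn from other genes were not measured. These shares and medians are therefore not shown to be particular to the 7 genes.

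**Figure D5:**
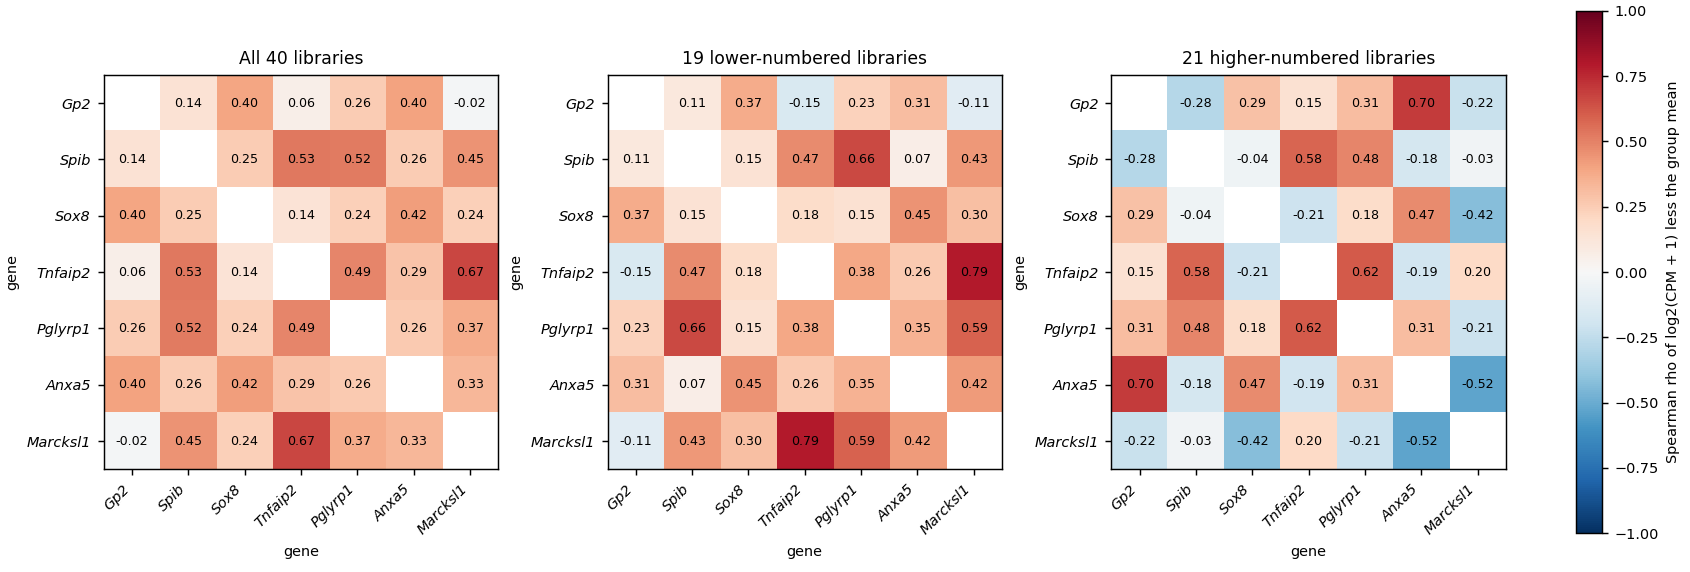
Spearman's rho between each pair of the 7 genes, after the group means of log2(CPM + 1) were taken off, over all 40 libraries (left), the 19 lower-numbered (middle) and the 21 higher-numbered libraries (right), with the value written in each cell and shown by its colour. Tnfaip2 and Marcksl1 stand highest at 0.67 over all libraries and at 0.20 in the higher-numbered set, where Gp2 and Anxa5 stand highest at 0.70.

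Among 12366 other protein-coding genes, those most like Gp2 by the same measure were Cldn4 (0.70), Tmc4 (0.66) and C3 (0.63). Cldn4, a tight junction gene and itself an mTEC marker, averaged 6.02 CPM in cTEC, 91.7 CPM in MHCII-low and 87.2 CPM in MHCII-high Control libraries, and its rho with Gp2 was 0.57 in the lower-numbered and 0.76 in the higher-numbered set. C3 gave 0.79 and 0.20. The genes most like Spib were Tnip1 (0.68), Lgals2 (0.68) and Eif4g1 (0.65), and Tnip1 gave 0.69 and 0.35 in the lower-numbered and higher-numbered sets. Those most like Sox8 were 9330182L06Rik (0.62), Ly6g6c (0.61) and Krt42 (0.61), and the first of them gave 0.92 and -0.09. Those most like Tnfaip2 were Foxp4 (0.70), Cdkn2b (0.69) and Lgals2 (0.68), and Foxp4 gave 0.83 and 0.87.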

How the data were processed

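RNA was counted in 42 libraries of sorted mouse TEC. The deposited table gives raw counts per Ensembl gene: its entries are whole numbers that the authors had not normalised. The submitters' processing notes name the build GRCm38 with SAMtools 1.2, FastQC 0.11.3, Picard 1.134 and HTSeq 0.4.1, without an order. The aligner is not given in the sources used here. Of 53465 identifiers, 53274 matched GENCODE release M21.

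In R 4.3.3, edgeR 4.0.16 kept 23040 of 37695 genes with any count (filterByExpr, minimum count 10, minimum total 15). One quasi-likelihood model with a mean for each of 9 groups was fitted to the 40 libraries of at least 100000 counts, with TMM factors, a biological coefficient of variation of 1.40, Benjamini-Hochberg adjustment over all genes tested and a threshold of 0.05. CPM use TMM library sizes, and log levels use a pseudocount of 1. A group without counts was placed at 3 counts over its summed libraries. DESeq2 1.42.0 and limma voom 3.58.1, covariates, other filters, each library left out in turn and fits within each library set were alternatives. Python 3.11.15, NumPy 2.4.6, pandas 2.3.3, SciPy 1.17.1 and Matplotlib 3.10.9 served for levels and figures. The model was tested on simulated counts with a spread well below that of these libraries. That checks the code and not what could pass here.

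The 7 genes are always named. Of each other list, up to 4 genes that passed, those of largest fold, may be named, or the most abundant if none passed. The 3 genes most like Gp2, Spib, Sox8 and Tnfaip2 were taken by Spearman's rho. Genes named beyond these rules were chosen after their values were seen. The genes and lists were chosen with earlier results of these data known. Intervals of counting error do not cover the amplification, since reads were not tagged as molecules.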

Additional observations from a re-analysis of the deposited data

Results flagged for a closer look

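Of 41 sets of libraries examined (1 gene in 1 group each), 7 had a highest library that stood further from the next than Dixon's 95% critical value allows. Chance gives about 1 in 20 where values are spread normally. Here CPM were taken without logs, the lowest library was examined as well, and all 7 flags were highest libraries. The rate of 1 in 20 therefore need not hold here. Nor does it hold where most libraries are at 0, since any single count then makes such a gap. In cTEC Control, replicate 1 held 5.46 CPM of Gp2 and 0.704 CPM of Sox8, against at most 0.146 CPM and 0 in the other 4. For Gp2 3 of those 4 libraries, and for Sox8 all 4, were at 0. In cTEC KO, replicate 2 held 56.1 CPM of Gp2 and 116 CPM of Spib, where the next libraries held 21.9 and 61.6 CPM. In MHCII-high KO, replicate 2 held 557 CPM of Gp2 and 81.1 CPM of Sox8, where the next held 205 and 25.9 CPM. In MHCII-low Control, replicate 3 held 1029 CPM of Marcksl1, where the next held 311 CPM. All of these libraries are lower-numbered, and 6 of the 7 values come from 3 libraries.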

How the results depend on the processing

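No paired analysis was run, and libraries were treated as independent. The labels give no replicate numbers, so that numbers follow accession order only. Library numbers run throughout in the order cTEC, MHCII-low and MHCII-high of the same genotype. No label says whether such neighbours share an animal, and a fit that matches them was not made. Among fold changes of the 7 genes under settings other than leaving a library out or splitting the sets, 406 kept direction and call, 13 lost and 15 gained the call and 10 turned. Of 7 genes called higher over cTEC in Control MHCII-low mTEC (2 by edgeR), DESeq2 gave 4, limma voom 1 and each library set 0, and 1 (Marcksl1) was lower in the higher-numbered set. Over all genes and both directions the lower set called 1 of 20066 there and the higher set 710 of 20216 (422 lower). In Control MHCII-high mTEC (2), DESeq2 and the library set covariate (612 of 23040 genes called) gave 4 and each set 0 (4 and 143 genes called). In KO MHCII-low mTEC (5), voom and a fit of only the groups compared (52 of 11634 called) gave 2 and each set 0 (38 and 355 called). In KO MHCII-high mTEC (4), voom and the fit of only the groups compared (442 of 11860 called) gave 2, the lower set 0 (206 called) and the higher set 1 (557 called). The higher set gave 1 of the 7 higher in MHCII-high than MHCII-low Control mTEC (113 of 20216 genes called), and DESeq2 1 between KO and Ski flox Control in cTEC (1033 of 18870) and in MHCII-low mTEC (997 of 18448). Genes called among all tested, by edgeR, DESeq2 and voom, were 178, 1521 and 1038 for MHCII-low over cTEC in Control, 256, 1713 and 1954 for MHCII-high, and 1308, 2327 and 1036 and 3385, 3446 and 3232 in KO.

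These log2 fold changes turned. Over cTEC in Control, Anxa5 in MHCII-low mTEC was -0.050 with all 42 libraries and -0.14 in the higher set, and in MHCII-high mTEC Tnfaip2 was -0.063 in the higher set and Marcksl1 0.16 by voom, 0.69 with the detected genes covariate and 0.054 in the lower set. In KO, higher-set values were -0.38 for Tnfaip2 (MHCII-low) and -0.11 for Marcksl1 (MHCII-high). Between KO and Control, Spib in MHCII-low mTEC was -0.024 with the set covariate, -0.17 with detected genes and -0.58 in the higher set. Sox8 there was -0.096 by voom and -0.93 in the higher set. Sox8 in MHCII-high mTEC was -1.23 by voom, -0.41 with the set covariate, -0.44 with detected genes and -1.96 in the higher set. Against cTEC, the difference of the Sox8 KO effect was -0.93 in the higher set in MHCII-low mTEC, and in MHCII-high mTEC -0.85 by voom and -1.96 in the higher set. The cause was not tested.

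With each library left out, KO over Control ran from -1.07 to 0.025 for Gp2, -0.64 to 0.013 for Pglyrp1 and -0.060 to 0.29 for Spib in MHCII-low mTEC, from -0.60 to 1.10 for Sox8, -0.023 to 0.57 for Pglyrp1 and -0.39 to 0.12 for Spib in MHCII-high mTEC, and from -0.70 to 0.093 for Spib in cTEC. Marcksl1 over cTEC in MHCII-high mTEC ran from -0.31 to 0.14 in Control and from -0.098 to 0.28 in KO. Of the 7 genes, those called higher over cTEC in Control ran from 1 to 2 in MHCII-low and from 0 to 2 in MHCII-high mTEC. Calls over all genes and both directions ran from 42 to 215 and from 69 to 224. Groups of 2 to 7 libraries with this spread limit what could pass, and Sox8 in cTEC rests on 4 counts.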
